A study of Homo sapiens with 8 samples.

Results

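The peaks described here are N6-methyladenosine (m6A) peaks that the authors' annotation places in an exon, where that exon is number 1 of a transcript with 2 or more exons of the same gene. Peaks on pseudogenes were left out. The authors' deposited table lists 10987 peaks. Of these, 3754 were annotated to exons, 685 named exon 1 of 2 or more, 562 named an exon of the peak's own gene, and 518 remained once 44 pseudogene peaks were removed. The 518 first exon peaks lie on 474 gene identifiers. No measured value entered this choice.

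The cells were BCPAP, an established human line of papillary thyroid cancer. The control cells and the METTL3 knockdown cells were each sequenced as input, with no antibody, and as an immunoprecipitate with an anti-m6A antibody. That gave 4 groups of 2 libraries. The titles carry the letter A for a control and the knockdown named sh1, and the letter B for the other control and the knockdown named sh3. What the letters mark is not stated. The deposited table gives 1 log2 fold change, 1 p-value and 1 false discovery rate (FDR) per peak for knockdown and control together, so no value per library or spread between libraries can be shown. All fold changes and FDRs given for single peaks are the authors', and fold changes are on the log2 scale. The library protocol keeps the strand of the RNA, but the table lists none. Read counts were not analysed here and the depth of each library is unknown. Which condition is the reference is not stated in the header. Here "lower" means less m6A signal in the knockdown than in the control and "higher" means more, and the directions would swap under the other reading. Whether the FDR takes in variation between the libraries of a group is not given in the sources used here. Of the marker genes looked up, 1 of 8 thyroid follicular genes (PAX8) and 1 of 6 epithelial genes (KRT8) had a peak listed, while the 3 fibroblast genes and the blood gene PTPRC had 0. A list of m6A peaks is not a measure of expression.

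METTL3 is the catalytic subunit of the nuclear complex that adds m6A to adenosines of messenger and long non-coding RNAs, mostly within a short motif around GGAC. In mature mRNA the mark is concentrated near stop codons, in 3' UTRs and in long internal exons, and short exons near splice junctions carry little of it. Antibodies against m6A also bind m6Am, a related mark on the nucleotide next to the cap, which another enzyme adds. A first exon labelled as exon and not as 5' UTR can be coding sequence near the start of a message, the opening part of a non-coding RNA, or exon 1 of a transcript that starts inside a gene.

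The sequences below are the parts of RefSeq transcript start windows (250 bases before to 50 bases after a start, GRCh38.p14) that lie inside called first exon peaks. They are shown because they are the stretches of called peaks that the RefSeq windows cover, and they can lie on either side of the start. All read 5' to 3' on the transcript strand, with the core motif GGAC in capitals wherever it occurs. For the protein-coding genes HELZ2 and VTI1A only 30 bases are given. The RAB30-DT stretch (chr11:83072052-83072115, plus strand), from a peak that was lower, holds 3 copies of GGAC, of which 1 is GGACT. It begins 14 bases before the start, and 1 of the copies lies before the start and 2 after it. The stretches of C15orf54 (chr15:39250684-39250718, plus strand), CNNM3-DT (chr2:96813608-96813657, minus strand), HELZ2 (chr20:63574210-63574239, minus strand), LINC00847 (chr5:180830707-180831006, plus strand) and VTI1A (chr10:112447058-112447087, plus strand) hold 0 on the transcript strand. The LINC00847 stretch holds 1 on the other strand. Of its 300 bases, 250 lie before the start. All 30 printed for VTI1A lie before the start of their window. The VTI1A peak nevertheless begins 70 bases inside the gene as RefSeq bounds it, so these bases are not upstream of the gene.
RAB30-DT: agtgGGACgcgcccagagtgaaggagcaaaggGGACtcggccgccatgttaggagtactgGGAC
C15orf54: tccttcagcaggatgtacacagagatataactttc
CNNM3-DT: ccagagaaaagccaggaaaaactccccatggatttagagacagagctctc
HELZ2: agaatcgaaactgagagctcctgggcaggc
VTI1A: cttctaatgatccctcagaacttgcatatt
LINC00847: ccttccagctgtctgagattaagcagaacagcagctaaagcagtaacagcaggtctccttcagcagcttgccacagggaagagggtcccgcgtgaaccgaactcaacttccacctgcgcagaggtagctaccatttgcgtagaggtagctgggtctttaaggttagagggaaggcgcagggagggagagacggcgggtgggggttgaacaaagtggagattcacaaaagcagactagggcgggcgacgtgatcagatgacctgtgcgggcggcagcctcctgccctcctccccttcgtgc

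Over all genes, 64 RefSeq start windows of 59 genes were overlapped by a first exon peak of that gene. On the transcript strand GGACT occurred in 17 of the 64 (26.6%), against 25.3% of all 35116 RefSeq windows of the same length, and the shorter GGAC, which includes every GGACT, in 65.6% against 66.3%. On the other strand GGACT occurred in 31.3% against 25.3%, and GGAC in 79.7% against 66.1%. Each window was searched whole, so most bases searched lie before the start and can lie outside the peak. In the first 50 transcribed bases, on the transcript strand, GGACT occurred in 6.25% of the 64 windows against 4.90%. The shorter GGAC occurred there in 18.8% against 18.9%. A window reaches only 50 bases into the transcript, so the rest of each peak was not searched.

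The main comparison asked which first exon peaks differ in m6A once METTL3 is depleted. Few did, and those that passed were mostly higher in the knockdown. At an FDR under 0.05, 41 of the 518 first exon peaks (7.92%) were called, against 17.1% of all peaks in the authors' deposited table. Of these, 12 were lower (2.32% of members, against 10.6% of all peaks) and 29 were higher (5.60%, against 6.52% of all peaks). The share called higher was thus near that of the whole table, and the share called lower was well under it. Of the called first exon peaks 29.3% were lower, against 62.0% over the table. No test of this difference between classes was made, because peaks are not replicates of a condition.

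The other annotation classes are given for comparison, also without a test. Last exon peaks had nearly the same share called, 59 of 816 (7.23%), with 26 lower and 33 higher. Internal exon peaks had 200 of 1063 called (18.8%), with 91 lower and 109 higher. Peaks in the 5' UTR had 426 of 2538 called (16.8%), with 223 lower and 203 higher. The 3' UTR stood at the other end, with 745 lower and 279 higher among 1024 called peaks.

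**Figure D1:**
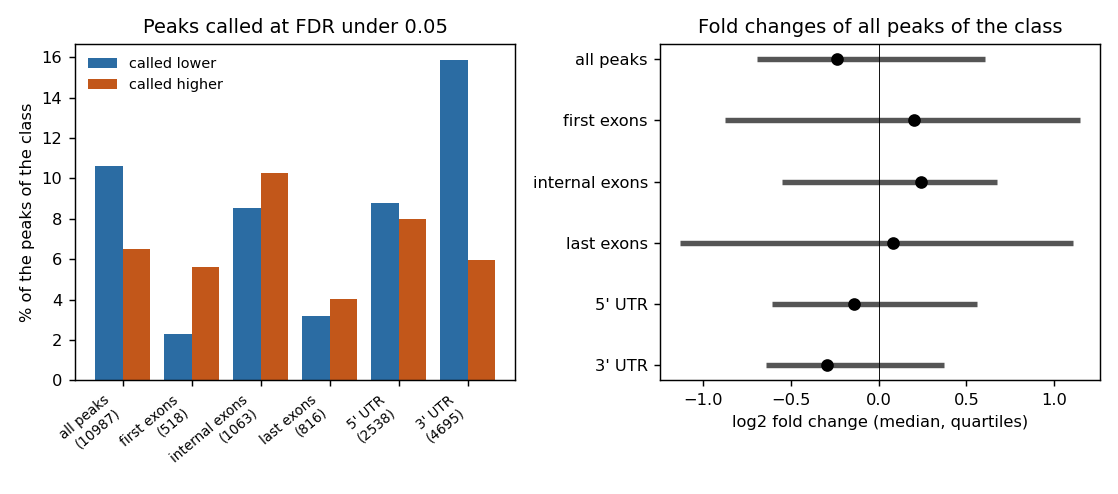
Left, the percent of peaks called lower (blue) and higher (orange) in each class of the authors' annotation, with the number of peaks in brackets. Right, the median (dot) and quartiles (bar) of the log2 fold change over every peak of the class. First exons have 2.32% lower and 5.60% higher, and the bar is wide, from -0.87 to 1.15.

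Over all 518 first exon peaks the fold changes were large and split in sign. The median log2 fold change was 0.20, with quartiles of -0.87 and 1.15, and 251 peaks were negative and 267 positive. Over the whole table the median was -0.24 with quartiles of -0.69 and 0.61. The median absolute log2 fold change was 1.03 in first exons, 0.66 over all peaks, 0.61 in internal exons and 1.12 in last exons. Few first exon peaks lay near 0: 14 had an absolute value under 0.2, and 5 of these were called. By contrast 104 had an absolute value of at least 2, and 10 of these were called. The size of a fold change and its call therefore went apart, as the plot of size against FDR shows.

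**Figure D2:**
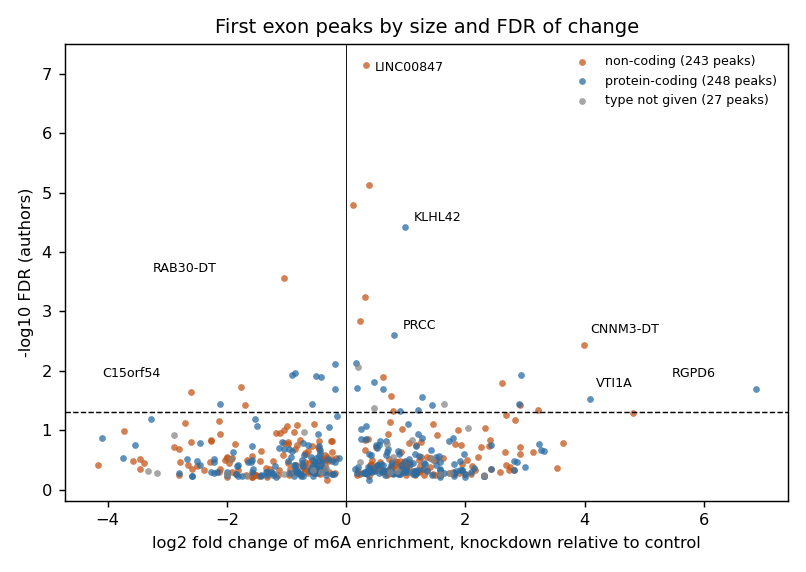
Each dot is 1 of the 518 first exon peaks, placed by the authors' log2 fold change (x) and by -log10 of the authors' FDR (y) and coloured by gene type. The dashed line is an FDR of 0.05; the 41 peaks above it include 29 to the right of 0, and most dots with large changes lie below it.

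Among called peaks, the steepest fall was in C15orf54 (ENSG00000175746, chr15:39250684-39252097), listed by RefSeq as a long non-coding RNA, at -2.60 (FDR 0.0229, the authors' deposited table). RefSeq places another locus, LOC105370777, on the opposite strand there, and the table has no strand. The non-coding RNAs MAPKAPK5-AS1 and LINC01679 had -1.76 and -1.70, at FDRs of 0.0186 and 0.0380 per the authors' deposited table.

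RAB30-DT, the divergent transcript that starts beside the small GTPase gene RAB30, had the smallest FDR of the lower peaks. Its peak (ENSG00000246067, chr11:83072052-83072352) had -1.04, equal to 0.486-fold (FDR 0.000275, the authors' deposited table). Its stretch with 3 copies of GGAC is printed above. The start of RAB30 itself lies on the opposite strand within 1000 bases.

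Several protein-coding genes were also lower. NOC2L, a nucleolar protein that inhibits histone acetylation, had -0.92 (chr1:957739-958188, FDR 0.0117 in the authors' deposited table). HELZ2, a helicase that acts as a nuclear receptor coactivator, had -0.86 (chr20:63572918-63574239, FDR 0.0107 in the authors' deposited table), and the peak ends exactly at a RefSeq start. SPATA5L1, an ATPase of the AAA family, VMP1, a membrane protein needed for autophagy, and METTL2A, a methyltransferase of transfer RNA, had -0.57, -0.51 and -0.43 per the authors' deposited table, at FDRs of 0.0363, 0.0123 and 0.0129. DDRGK1, an adaptor of the UFM1 conjugation system at the endoplasmic reticulum, and ZRANB2, a splicing regulator, had only -0.19 and -0.18 in the authors' deposited table (FDRs 0.00776 and 0.0204). Both changed sign when the median of all peaks, -0.24, was subtracted.

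The largest increases among called peaks were in 2 protein-coding genes and a divergent transcript. RGPD6 had 6.87 (FDR 0.0200, the authors' deposited table), and is uncertain because its family has near-identical copies. VTI1A, a SNARE protein of endosome to Golgi transport, was higher at 4.09 in a peak of only 91 bases (ENSG00000151532, chr10:112447058-112447148, FDR 0.0295 in the authors' deposited table). That peak lies over ZDHHC6, a gene of the opposite strand that starts nearby. CNNM3-DT, the divergent transcript beside the transporter gene CNNM3, was higher at 3.99, equal to 15.9-fold (ENSG00000273265, chr2:96812328-96813657, FDR 0.00363 per the authors' deposited table). The peak spans 1330 bases of a gene of 1419.

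CATSPER1, a subunit of the sperm calcium channel, was higher at 2.93 (chr11:66025259-66025854, FDR 0.0117 in the authors' deposited table). The non-coding LINC00884 had 2.91 and the lipid kinase gene DGKI had 2.90, at FDRs of 0.0372 and 0.0363 per the authors' deposited table. LINC00884 lies over ATP13A3 of the opposite strand. RMND5B, a subunit of the CTLH ubiquitin ligase, ZDHHC14, a protein palmitoyltransferase, and ZNF276, a zinc finger protein, had 1.44, 1.27 and 1.21 per the authors' deposited table, at FDRs of 0.0372, 0.0275 and 0.0447. The ZDHHC14 peak spans 160528 bases of genome including introns, the widest of all members, so its place within the transcript is not known.

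Other increases were smaller in size, and some of them had small FDRs. KLHL42, an adaptor of the CUL3 ubiquitin ligase, was higher at 0.99, equal to 1.98-fold, with an FDR of 3.80e-05 (ENSG00000087448, chr12:27780765-27781154, in the authors' deposited table). An overlapping peak of the same exon had 0.57 and was not called (FDR 0.150). PRCC, a nuclear protein known from renal carcinoma fusions with TFE3, had 0.80 (chr1:156768105-156768404, FDR 0.00245 per the authors' deposited table). SETD2, the methyltransferase that trimethylates histone H3 lysine 36, had 0.90 with an FDR of 0.0468. WDR81, an endosomal protein, had 0.48 (FDR 0.0151, the authors' deposited table). BUD13, a spliceosome component, and MAML1, the Notch coactivator, were higher by only 0.18 and 0.17 on the log2 scale, at FDRs of 0.0191 and 0.00724 per the authors' deposited table. SNHG9, a small nucleolar RNA host gene, had 0.76 with an FDR of 0.0263, and NPIPB3, of a family with near-identical copies, had 0.61 (FDR 0.0204, the authors' deposited table).

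**Figure D3:**
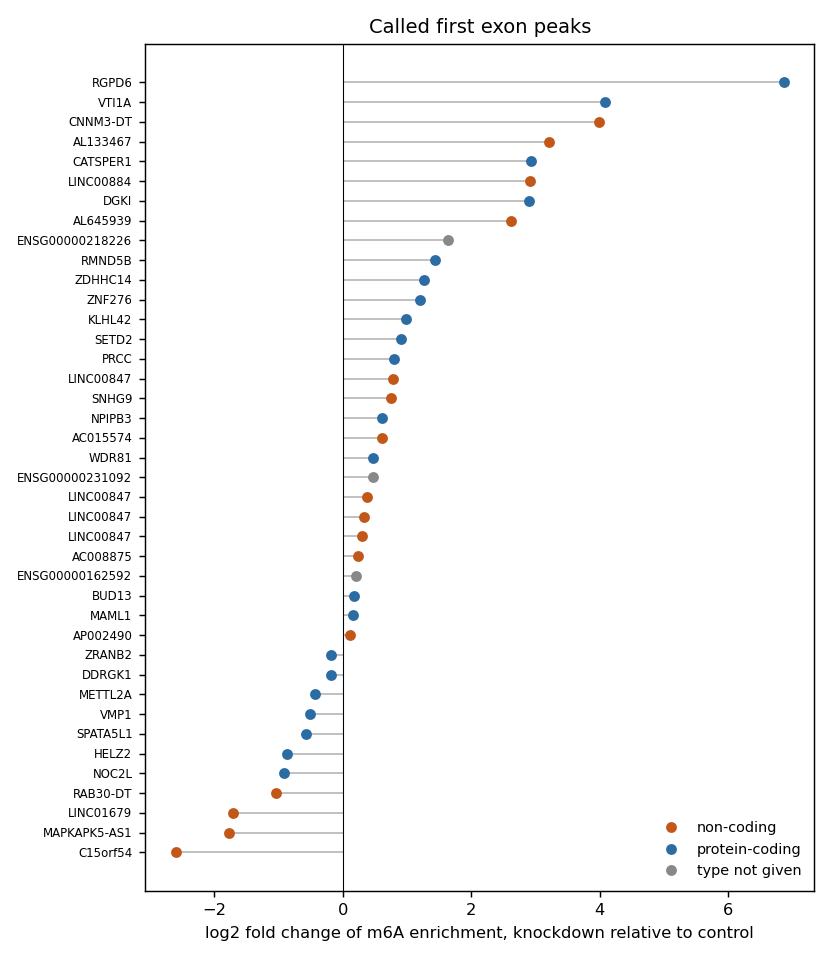
The authors' log2 fold change of 40 of the 41 called first exon peaks, in order of size and coloured by gene type, with gene identifiers where the table gives no name. The 11 lower peaks shown reach -2.60 (C15orf54), and the 29 higher ones run from 0.12 to 6.87 (RGPD6).

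LINC00847, a long intergenic non-coding RNA, supplied 4 of the 29 higher peaks. Its peaks measured 0.31, 0.33, 0.38 and 0.78 per the authors' deposited table, at FDRs of 0.000575, 7.08e-08, 7.59e-06 and 0.0468. The first 3 of these overlap one another (chr5:180828448-180831385 in all) and the fourth lies apart (chr5:180831654-180832685), so the 4 calls come from 2 separate places. RefSeq places ZFP62 on the opposite strand under all 4, and the non-coding HEIH under the 3 that overlap. Because the table has no strand, signal from these genes and from LINC00847 cannot be told apart. With 1 peak per gene, that of the smallest p-value, 38 of 474 genes were called, 12 lower and 26 higher.

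Nearly as many first exon peaks lay on non-coding as on protein-coding genes. By the gene descriptions and RefSeq, 243 (46.9%) were on non-coding genes, 248 (47.9%) on protein-coding genes, and for 27 the type was not given. Last exon peaks had a like share on non-coding genes (45.5%), and internal exon peaks a much smaller one (13.6%). Of the non-coding first exon peaks 16 were called (6.58%), and of the protein-coding ones 22 (8.87%).

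By place in the transcript, the called peaks of non-coding genes divided as follows. Of 243 first exon peaks 4 were lower (1.65%) and 12 higher (4.94%). Of 145 internal exon peaks 13 were lower (8.97%) and 8 higher (5.52%), and of 371 last exon peaks 17 were lower (4.58%) and 4 higher (1.08%). With 1 peak per gene the first exon count was 4 lower and 9 higher. Protein-coding genes had 8 lower and 14 higher among 248 first exon peaks, 78 and 99 among 895 internal exon peaks, and 8 and 29 among 426 last exon peaks. None of these counts was tested. Over all first exon peaks, called or not, 126 non-coding ones were negative and 117 positive, and 114 protein-coding ones were negative and 134 positive. Their medians were -0.24 and 0.32, with quartiles of -1.05 and 1.07 and of -0.76 and 1.15, and with few peaks near 0 a median moves far for a small shift in signs.

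The non-coding members were of several kinds. The 111 peaks on 104 transcripts that the table describes without an established name had 0 lower and 5 higher, with AL645939 at 2.62 and AL133467 at 3.22 in the authors' deposited table. Among 47 peaks on 40 long intergenic RNAs, 1 was lower and 5 were higher, 4 of the latter from LINC00847. Of 49 peaks on 46 antisense RNAs only that of MAPKAPK5-AS1 was called (2.04%). Of 14 peaks on 13 divergent transcripts those of RAB30-DT and CNNM3-DT were, in opposite directions. Several long non-coding RNAs studied in cancer, chosen after their values were seen, had first exon peaks that were not called. H19 had 2.03 (FDR 0.309), MIR4435-2HG 2.22 (FDR 0.283), PVT1 0.53 (FDR 0.390) and FIRRE -0.37 (FDR 0.449) in the authors' deposited table.

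The label of a first exon was then set against RefSeq starts of the same genes. A match to a RefSeq symbol was found for 379 members, and 312 had a RefSeq start with a strand on the same chromosome. Of the 312, 31 (9.94%) covered a listed start, and 165 (52.9%) covered one or lay within 1000 bases of it. Another 94 (30.1%) lay over 10000 bases from every listed start. The start windows used leave out some gene ends. A GSE1 peak 223 bases from the RefSeq 5' bound of its gene lay 443407 bases from the nearest listed start. Peaks of ZNF821 and SLC4A8, 0 and 418 bases from that bound, lay 10766 and 32907 bases from a listed start. Some of the 94 thus lie near an unlisted gene start. Non-coding genes had 77.9% within 1000 bases, and protein-coding genes 40.4%. In protein-coding genes, 83 of 208 first exon peaks (39.9%) lay over 10000 bases from any listed start, those of GSE1, ZNF821 and SLC4A8 among them. Many peaks labelled as first exon are thus not near a start listed in this RefSeq set. The authors' deposited table has its own distance to a transcript start, which was 0 for 243 of the 518 members (46.9%). By that distance 73 lay over 10000 bases away. Of the 147 members over 1000 bases from every listed RefSeq start, 34 had a deposited distance of 0.

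**Figure D4:**
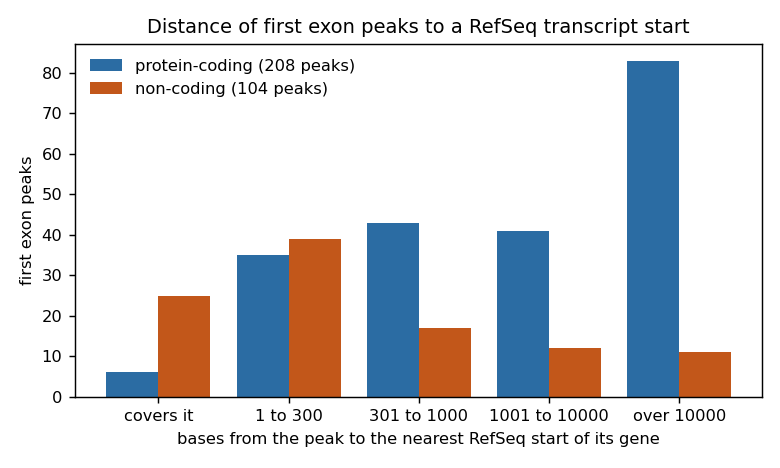
Number of first exon peaks by distance, in bases, to the nearest listed RefSeq start of the gene. Shown are the 208 protein-coding (blue) and 104 non-coding (orange) peaks with such a start. The tallest bar is the 83 protein-coding peaks beyond 10000 bases.

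Named members show both cases. The SETD2 peak, in exon 1 of a 19-exon transcript, lies 41566 bases from the nearest RefSeq start and 28.6% of the way through the gene (chr3:47122337-47122547). The VMP1 peak (chr17:59837941-59838151) lies 130287 bases from the RefSeq start of VMP1 and 96.9% of the way through it. The hairpin of the microRNA gene MIR21 begins 3115 bases further on, on the same strand. DGKI, ZNF276 and RMND5B lie 71565, 11130 and 11126 bases from a RefSeq start. In contrast KLHL42, PRCC, NOC2L, SPATA5L1 and METTL2A lie 532, 570, 1068, 804 and 247 bases from one. The deposited distance to a transcript start differs for some of these. It was 0 for VMP1 and DGKI, 1240 for SETD2, 12267 for ZNF276 and 11144 for RMND5B. For KLHL42, PRCC, NOC2L, SPATA5L1 and METTL2A it was 0, 17495, 1068, 804 and 269.

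The counts of calls were also split by distance to a listed RefSeq start, with no test of the difference. Of the 165 members within 1000 bases of a start 20 were called (12.1%), 8 lower and 12 higher. Of the 147 further away 9 were called (6.12%), 2 lower and 7 higher. Both shares lie under the 17.1% of the whole table. Of the 312 members with a strand, 40 (12.8%) lay over a RefSeq gene of the opposite strand. Of these 7 were called (17.5%, near the 17.1% of the whole table), 1 lower and 6 higher, with LINC00847 giving 4 of the higher ones. Of the 272 not over such a gene 22 were called (8.09%), 9 lower and 13 higher. Of the 518 members, 46 overlapped another peak of the table, 31 overlapped another member and 13 overlapped a peak of another gene. Of the 41 called members only that of the unnamed transcript AP002490 overlapped a peak of another gene. Its value of 0.12 stood beside 0.14 for the overlapping peak assigned to NUMA1, a spindle protein, in the authors' deposited table (FDRs 1.62e-05 and 2.00e-14).

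Other peaks of the same genes were set beside the first exon peaks. Of the 474 genes, 162 also had peaks in other classes, 267 in all, and 312 had first exon peaks only. The first exon peak and another peak of its gene had the same sign in 168 of 310 pairs (54.2%), which includes 63 of 114 pairs with a 3' UTR peak. The 101 3' UTR peaks of these genes had 25 called (24.8%), 16 lower and 9 higher. That is near the share over all 3' UTR peaks, of which 21.8% were called and 72.8% of the calls were lower. All values come from the same libraries and are given as a description.

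Of the 25 pairs whose first exon peak was called, 13 had the same sign, whether or not the other peak was called. In 5 pairs both the first exon peak and another peak of the gene were called, and in all 5 the signs were opposite. The HELZ2 first exon had -0.86, while an internal exon peak had 0.25 (chr20:63562329-63564981, FDR 0.0224 in the authors' deposited table). RMND5B had 1.44 in its first exon and -0.27 in a 3' UTR peak (FDR 0.00933, the authors' deposited table). ZDHHC14 had 1.27 in its first exon and -2.35 in a 3' UTR peak (FDR 0.0186, the authors' deposited table), although a neighbouring 3' UTR peak that was not called had 2.35. The unnamed transcript AC015574 had 0.61 in its first exon, -0.94 in an internal exon and -0.45 in a last exon, at FDRs of 0.0126, 0.00676 and 0.000490 per the authors' deposited table. These 5 pairs are from 4 genes. Of the internal exon peaks of HELZ2 that were not called, those with -0.68 and -0.61 had the sign of the first exon and that with 0.23 did not. A last exon peak of AC015574 that was not called had the sign of its first exon.

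**Figure D5:**
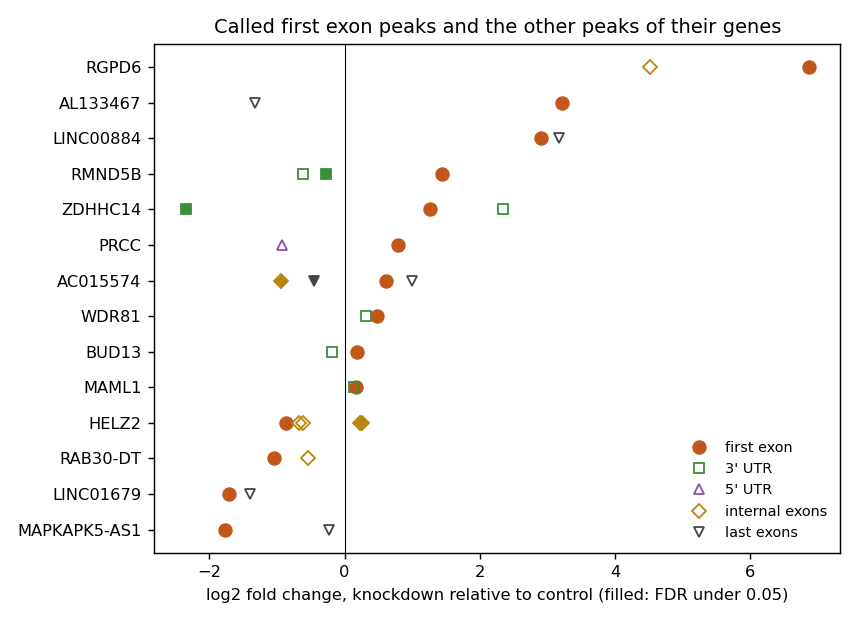
The log2 fold change of called first exon peaks of named genes (orange circles) and of the other peaks of the same genes, by class, with filled symbols for peaks called at an FDR under 0.05. In HELZ2, RMND5B, ZDHHC14 and AC015574 filled symbols of other peaks lie across 0 from the first exon.

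Genes with several first exon peaks show how far neighbouring values varied. There were 35 such genes, of which 25 had all their peaks of 1 sign. In all 13 genes whose peaks overlap in 1 place the signs matched, against 12 of 22 genes with peaks in separate places. Overlapping peaks cover some of the same bases, so their signs are not independent and a match there says little. GSE1, a subunit of a histone demethylase complex, had 5 peaks from -0.76 to 1.29, and none was called (smallest FDR 0.173 in the authors' deposited table). CCDC84, a centrosomal and splicing protein, had 4 peaks, all negative, from -1.42 to -0.45, and DCPS, the scavenger decapping enzyme, had 3, from -3.75 to -1.74. None of these 7 was called either, the smallest FDRs being 0.224 and 0.289 in the authors' deposited table. The unnamed transcript AF117829 had 3 peaks from -1.58 to 0.87 and none called.

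Of the gene lists looked up, that of long non-coding RNAs by description held 230 first exon peaks on 212 genes, with 3 lower and 12 higher. Over all classes of annotation, 91 of the 1082 peaks of that list were called. The lists of protein-coding families held few. Protocadherin clusters, immediate early genes, growth factor docking and feedback genes, m6A machinery, glycosyltransferases and ribosomal proteins had 0 first exon peaks, of 48, 6, 25, 18, 48 and 31 peaks in the table. First exon peaks are 4.71% of all peaks, so lists of this size would hold few in any case. Zinc finger factors had 11 first exon peaks on 9 genes, 0 lower, 1 higher (ZNF276) and 10 not called, with a median of 1.01. Over all classes 81 of 637 zinc finger peaks were called. ZNF341 had overlapping peaks at 2.81 and 3.32 (FDRs 0.330 and 0.225 in the authors' deposited table). Of 3 chromatin regulators SETD2 was higher, while the acetyltransferase scaffold BRD1 had 0.33 (FDR 0.0832) and the demethylase KDM4A 1.0 (FDR 0.475) in the authors' deposited table. Of 5 peaks of BTB and RING ubiquitin ligase genes, 1 was higher, that of KLHL42. Over all classes 36 of 134 peaks of that list were called. Homeobox and related factors (3 peaks, with HOXB8 at -1.56 and NKX6-1 at 1.20), ion channels and solute carriers (6 peaks, from -2.58 to 3.27) and small GTPase regulators (4 peaks, from -0.82 to 1.81) had 0 called. Over all classes these lists had, in that order, 15 of 65, 30 of 199 and 13 of 90 peaks called. With so few first exon peaks, 0 calls say little. The same holds for 1 call among 3 chromatin regulator peaks or 5 ubiquitin ligase peaks.

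Wider peaks were called more often up to a span of 10000 bases, in first exons as over the whole table. First exon peaks had a median span of 301 bases (quartiles 151 and 1027), against 389 over all peaks. Of the 116 members up to 150 bases, 1 was called (0.862%), against 3.50% of all peaks of that span. Members of 301 to 1000 bases had 9.30% called against 19.6%, and those of 1001 to 10000 bases 21.3% against 29.0%. Above that span the shares were 8.11% and 23.2%. In each of the 5 span classes the share was lower than that over all peaks. Whether read depth differs between these peaks was not tested.

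The number of calls moved with the threshold, while higher peaks outnumbered lower ones at each of them. At an FDR under 0.01, 12 members were called (2.32%, against 9.24% of all peaks), 2 lower and 10 higher. At an FDR under 0.10 there were 64 (12.4%, against 24.0%), 23 lower and 41 higher. A Benjamini-Hochberg value recomputed over the table gave the same count of 64, against 24.2% of all peaks. When a log2 fold change of 1 or more in size was also required at an FDR under 0.05, 17 members passed (3.28%), which is no longer below the 2.86% of all peaks, with 5 lower and 12 higher. Just inside the FDR threshold lay SETD2 and the fourth LINC00847 peak, both at 0.0468, and just outside lay C22orf24, a peak on chromosome 22 with a log2 fold change of 4.82, at 0.0513 in the authors' deposited table. That peak overlaps a 5' UTR peak of DEPDC5, a regulator of mTORC1, which had -0.59 with an FDR of 0.0776.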

How the data were processed

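Poly(A) RNA of BCPAP cells was fragmented, immunoprecipitated with an m6A antibody and sequenced in pairs, per the labels' protocols. Builds GRCh38 and hg38 appear in the submitters' processing notes, as do edgeR, StringTie, ChIPseeker, HOMER, HISAT2 and fastp. Their roles, the peak filters and any pooling of libraries are not stated there. The authors' deposited table holds a log2 fold change and a p-value per peak, and a score that its header marks as the log10 of an FDR, which was raised to the linear scale. Signs matched the up or down label in 10987 of 10987 peaks. No model was fitted here. First exon peaks were found from the annotation text, calls used the deposited FDR under 0.05, and classes and lists were described by counts and medians. The self-made functions were tested on simulated data. Places and sequences came from RefSeq tables of GRCh38.p14, matched by symbol or unique synonym. Genomic spans include introns.

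Named genes were, among called first exon peaks with 1 peak per gene and no clone names, the 10 largest decreases, the 10 largest increases and the 10 smallest FDRs, up to 3 called members of each gene list, and genes with several first exon peaks. Of these, 1 gene is counted but not reported here. SNHG9, WDR81, BUD13, NPIPB3, ZRANB2, C22orf24, NUMA1, DEPDC5, the unnamed transcripts and the list members that were not called were chosen after their values were seen. Members and lists were chosen with earlier results of these data known. Versions were matplotlib 3.10.9, scipy 1.17.1, numpy 2.4.6 and pandas 2.3.3 under Python 3.11.15.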

Additional observations from a re-analysis of the deposited data

How the results depend on the processing

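The count of called first exon peaks, 41 in the main setting, was 12 at an FDR under 0.01, 64 at an FDR under 0.10 and 64 with recomputed Benjamini-Hochberg values. It was 17 when a log2 fold change of 1 or more in size was also required, 18 of 387 peaks with a span of at most 1000 bases and 25 of 275 without non-coding genes, where fewer peaks were counted. It stayed within 1.5 times of 41 with transcripts of 3 or more exons (31) and peaks within RefSeq bounds (28). With 1 peak per gene it was 38, and with 1 per set of overlapping peaks 39. Both of these keep the peak of smallest p-value, so a gene or set with a call could not lose it. The lower share, 29.3% (95% Clopper-Pearson interval 16.1 to 45.5%, counting error only), ran from 16.7 to 35.9% over the 11 alternatives. The interval treats the called peaks as independent, although 4 are from LINC00847, and it is not a test against other classes. The median log2 fold change, 0.20, was 0.44 after the median of all peaks was subtracted and 0.39 for spans of at most 1000 bases. Few peaks lie near 0, so the median can move widely. No paired analysis was possible because the table holds 1 comparison and no values per library, so leaving out a replicate was not run either.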

Other observations

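Some first exon peaks lie beside microRNA hairpins. Within 5000 bases of a RefSeq hairpin were, besides VMP1 and MIR21, the called peaks of ZRANB2, 4435 bases from MIR186, and of ZDHHC14, whose span covers MIR3692. Peaks of host genes that were not called included MIR762HG at -2.13 (FDR 0.0692, 106 bases from MIR4519), MIR193BHG at 2.91 (FDR 0.189, 1202 bases from MIR193B), H19 at 2.03 (789 bases from MIR675) and MIR100HG at 1.23 (FDR 0.473, 2069 bases from MIR125B1) in the authors' deposited table. MicroRNA levels were not analysed here.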
